A study of Mus musculus with 6 samples.

Results

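The 37 genes described here encode the enzymes that make, break down and respond to the cyclic nucleotides cAMP and cGMP: 17 phosphodiesterases, 9 adenylyl cyclases, 3 subunits of soluble guanylyl cyclase, 6 subunits of protein kinase A and 2 cGMP-dependent protein kinases. They were taken by gene symbol from the 32285 genes of the count matrices, and all 37 were found. The samples were 6 droplet RNA libraries of single nuclei from wild type mice (brain, septal area), with no treatment and no second genotype in the labels, called replicates 1 to 6. The labels used here state no age, sex, strain or number of animals, so p-values measure only the spread between these libraries, which may be technical. Cell classes were therefore compared within libraries. No aim for these comparisons is stated in the labels.

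Adenylyl cyclases make cAMP when G protein-coupled receptors act on them, and soluble guanylyl cyclase, a heterodimer of an alpha and a beta subunit, makes cGMP when it binds nitric oxide. cAMP frees the catalytic subunits of protein kinase A (PKA) from its regulatory subunits, cGMP activates the cGMP-dependent kinases (PKG), and phosphodiesterases end both signals by hydrolysing the nucleotides. The families differ in substrate and control, so the set that a cell type holds shapes how its cAMP and cGMP pools are linked, a property best known from striatal projection neurons and from vascular smooth muscle.

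The libraries held 7393 to 11134 barcodes each, 55537 in all, and 70183544 to 95175260 unique molecular identifiers (UMIs, 1 per captured RNA molecule). The 54623 barcodes with at least 500 detected genes were sorted into classes by the UMIs of marker genes that include none of the 37, and 44380 of them (81.2%) met a gate. The classes carry the ending "-like" in the text and figures since only marker RNA, and no anatomy, defined them. The gates gave 23309 neurons, among them 13831 GABAergic-like (6455 lateral septum-like, 757 striatal-like, 125 medial septum-like and 6465 other), 330 glutamatergic-like and 79 cholinergic-like. They also gave 8089 astrocyte-like nuclei, 6512 oligodendrocyte-like, 2297 oligodendrocyte precursor-like, 149 committed precursor-like, 2310 ependymal-like, 762 microglia-like, 530 endothelial-like, 281 mural-like (pericyte or smooth muscle) and 102 neuroblast-like. Of the neurons, 9069 fell in no transmitter class. These count in neurons as a whole but are not among the 15 classes ranked below. Between 13.47 and 20% of the striatal-like, lateral septum-like and medial septum-like nuclei lay just above their cutoff, so these 3 classes have soft edges. Pairs of libraries shared 0.162 to 0.433% of the barcodes of the smaller library. Library 4 stood apart in 1 class: its glutamatergic-like sum came from 17 nuclei and held Neurod2, a marker of cortical projection neurons, at 19.0 CPM against 0 to 1.77 CPM in the other 5 libraries, and the 6 largest differences of that class are given with and without it. Levels are CPM, UMIs of a gene per 1000000 UMIs, of the summed counts of a class in a library, with means ± SD over libraries (n = 6, but 4 for cholinergic-like and 5 for neuroblast-like nuclei). They are compared for 1 gene across classes and never between genes.

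Mural-like and striatal-like nuclei were the classes in which most of the 37 genes peaked. Over 15 classes, 11 genes had their highest mean in mural-like nuclei, 8 in striatal-like, 4 in cholinergic-like, 3 each in oligodendrocyte-like and neuroblast-like, 2 each in microglia-like and glutamatergic-like nuclei, and 1 each in 4 other classes. For 23 of the 37 the lowest library of the top class lay above the highest library of the next class, against 28.8% of the 18325 genes with a class mean of at least 3 CPM. Of the 11 genes highest in mural-like nuclei, 10 were separated in this way from the next class, against 3 of the 8 highest in striatal-like nuclei. None of these peaks was tested, because the classes were ordered by the same values. The share of all genes that peak, or are separated, in each single class was not computed. The counts per class therefore do not set the 37 genes apart from genes at large.

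**Figure D1:**
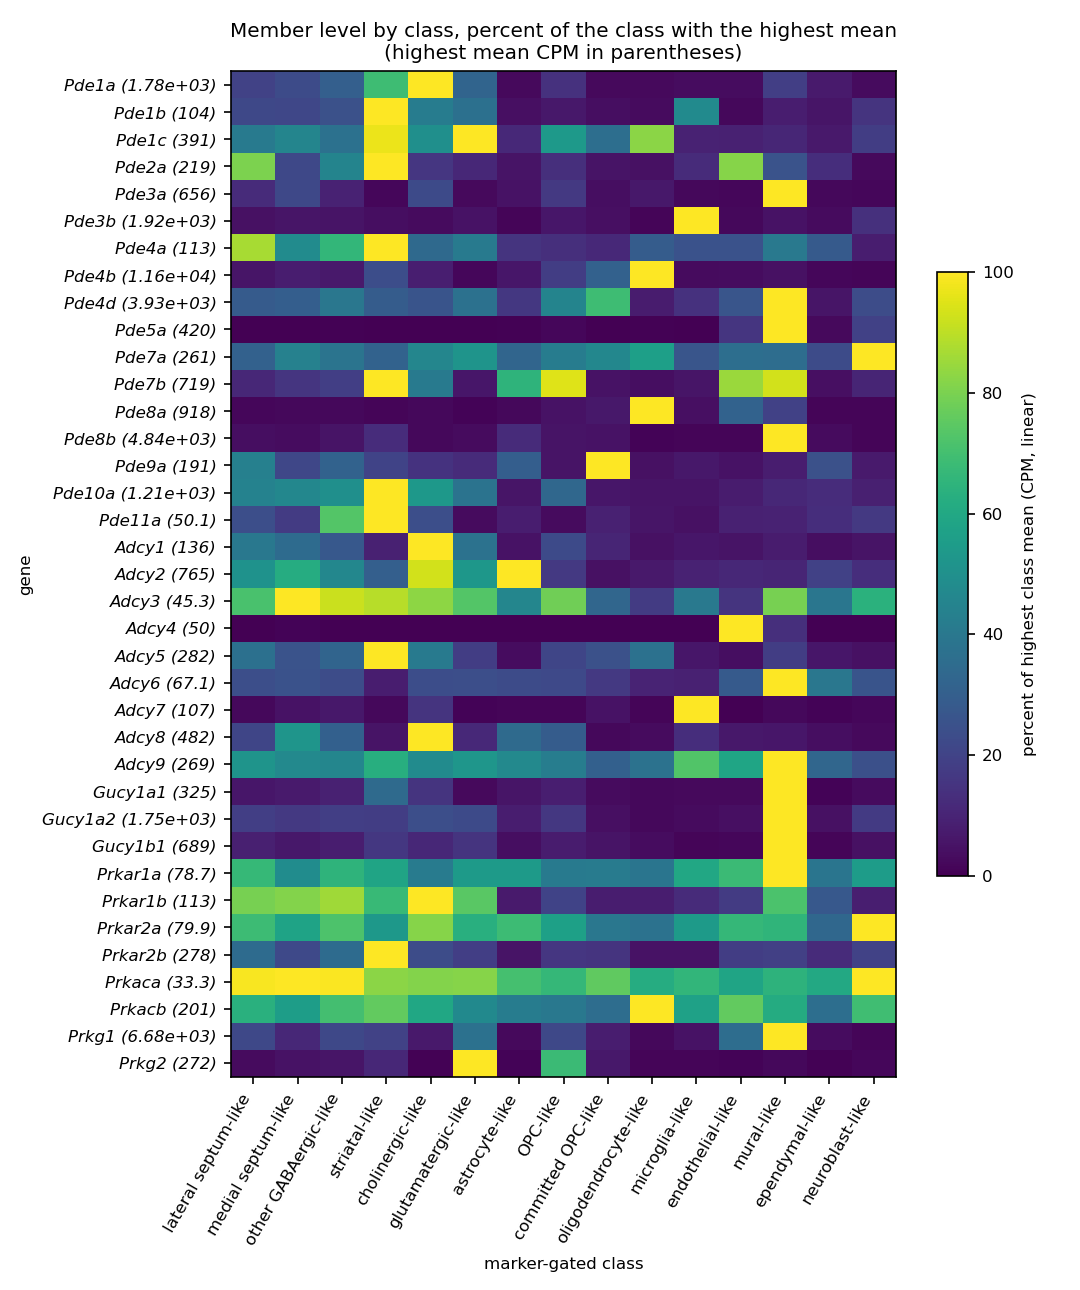
Mean CPM of each of the 37 genes (rows) in 15 marker-gated classes (columns), as a percentage of that gene's highest class mean (colour, linear scale), with the highest mean in parentheses. The top class of each gene is yellow, but so are classes close to it, such as striatal-like nuclei for Pde1c (97.2%) and OPC-like nuclei for Pde7b (95.1%). By mean, 11 genes peaked in mural-like and 8 in striatal-like nuclei, while class means of Prkaca ran from 19.4 to 33.3 CPM.

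GABAergic-like neurons differed from glutamatergic-like neurons in a majority of the genes tested. Of 36 genes tested 23 passed, 16 higher (17.6% of all genes) and 7 lower (9.82% of all) in GABAergic-like neurons, 13 did not pass, and Adcy4 had too few counts to be tested (edgeR's quasi-likelihood test, Benjamini-Hochberg adjustment over 16390 genes). In this comparison 27.4% of all genes passed, and the median log2 difference was 0.276 over the 36 genes and 0.083 over all genes. By role, 10 phosphodiesterases were higher and 3 lower, 3 adenylyl cyclases were higher and none of the 8 tested was lower, and both PKG genes were lower. Pde1b, 1 of the 3 lower, did not pass without replicate 1 or replicate 3 (edgeR adjusted p = 0.085 and 0.054). With the stricter gate or nuclei thinned to 2000 UMIs, neither Pde1b (0.21 and 0.85) nor Pde8a, 1 of the 10 higher (0.16 and 0.069), passed. The cyclase subunits divided: Gucy1a1 was higher, Gucy1a2 and Gucy1b1 lower, although Gucy1a2 did not pass without replicate 1 or replicate 6 (edgeR adjusted p = 0.06 and 0.053). Ranges over libraries did not overlap for 21 of the 36 genes, against 21.5% of all genes.

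Prkg2, which encodes the membrane-anchored PKG, showed the largest difference of this comparison. Its level in glutamatergic-like neurons was 219 to 307 CPM (median 283), against 10.4 to 13.3 CPM (median 12.3) in GABAergic-like neurons, a log2 difference of -4.53 ± 0.10 (SE, n = 6 libraries; edgeR adjusted p = 2.9e-20). Every glutamatergic-like library lay above every GABAergic-like one, and the next class, oligodendrocyte precursor-like nuclei, reached 186 ± 7.92 CPM. Prkg1, the more widely expressed PKG gene, moved the same way by less, 1427 ± 48.0 against 2479 ± 435 CPM (-0.80 ± 0.093, edgeR adjusted p = 2.3e-07).

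Phosphodiesterases made up most of the genes that were higher in GABAergic-like neurons. Pde11a, a dual-substrate enzyme, stood at 17.8 to 31.2 CPM (median 22.2) in GABAergic-like neurons and at 0 to 2.56 CPM (median 1.42) in glutamatergic-like neurons, where it rested on 6 UMIs in all (3.87 ± 0.35, edgeR adjusted p = 3.2e-09). Pde2a, which cGMP activates and which hydrolyses both nucleotides, was at 136 to 159 CPM (median 143) against 5.70 to 65.5 CPM (median 10.3), a log2 difference of 2.90 ± 0.27 (edgeR adjusted p = 7.8e-09). For both genes the classes did not overlap. The spread of Pde2a among glutamatergic-like libraries came from libraries 4 and 6, at 47.6 and 65.5 CPM, while the other 4 lay at 5.70 to 11.7 CPM. Pde3a, which hydrolyses cAMP and is inhibited by cGMP, measured 69.1 to 72.2 CPM (median 71.0) in the GABAergic-like and 1.90 to 44.8 CPM (median 6.47) in the glutamatergic-like class (2.38 ± 0.32, edgeR adjusted p = 2.4e-06). Pde4b, a cAMP-specific enzyme, measured 702 to 902 CPM (median 793) and 66.5 to 604 CPM (median 147) in the same order (2.34 ± 0.21, edgeR adjusted p = 3.8e-09). Gucy1a1, an alpha subunit of soluble guanylyl cyclase, measured 24.1 to 30.7 CPM (median 28.3) and 3.07 to 14.3 CPM (median 7.51). Its log2 difference was 1.87 ± 0.24 (edgeR adjusted p = 1e-06). None of these 3 genes had overlapping ranges. Library 4 was the highest glutamatergic-like library for Pde4b at 604 CPM and the second highest for Pde3a at 33.3 CPM. Without it the log2 differences were 2.68 for Pde4b, 2.50 for Pde3a, 3.05 for Pde2a, 3.75 for Pde11a, 1.95 for Gucy1a1 and -4.60 for Prkg2, and 22 genes passed in place of 23, with Adcy7 lost. Adcy7 also missed the threshold when replicate 1, 2, 3 or 6 was left out (edgeR adjusted p from 0.051 to 0.12).

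The remaining genes of this comparison differed by less. Pde1c, a calcium-activated dual-substrate enzyme, was lower in GABAergic-like neurons at 164 ± 6.61 against 391 ± 55.8 CPM, while Pde7b, a cAMP-specific enzyme, was higher at 129.8 ± 12.9 against 43.5 ± 20.1 CPM. Pde9a, which is specific for cGMP, was higher at 71.6 ± 3.46 against 23.9 ± 3.86 CPM. Among adenylyl cyclases Adcy5, which calcium inhibits, was at 107 ± 4.38 against 51.5 ± 9.29 CPM, and Adcy8, which calcium and calmodulin stimulate, at 118 ± 4.38 against 55.1 ± 16.5 CPM. Within PKA, the regulatory subunit Prkar2b and the catalytic subunit Prkacb were higher and the other 4 subunits did not pass. The GABAergic markers in glutamatergic-like nuclei summed to 5.83% of their level in GABAergic-like nuclei, which is close to the 5.88% of Pde11a, and the part of free or carried-over RNA in that low level was not tested. Here and in the comparisons below, the same markers gated the nuclei, so the gates limited their sums outside their own class. Such sums therefore set no level above which a gene is free of carried-over RNA. Of 55 other genes of the pathway, such as G proteins, anchoring proteins and cyclic nucleotide-gated channels, 49 were tested, 14 were higher and 7 lower. Among those that passed were Cnga3, a cyclic nucleotide-gated channel (0.377 ± 0.155 against 7.51 ± 5.75 CPM), and Nos1, the neuronal nitric oxide synthase (15.8 ± 2.25 against 4.14 ± 6.12 CPM, with overlapping ranges).

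Lateral septum-like and striatal-like neurons, both GABAergic, held different sets of cyclases and phosphodiesterases. Of 36 genes tested 28 passed, 10 higher and 18 lower in lateral septum-like neurons (19.2% of all genes in each direction), against 38.4% of all 15174 genes (edgeR, Benjamini-Hochberg adjustment). The median log2 difference was -0.162 over the 36 genes and 0.002 over all genes, and ranges did not overlap for 22 of them, against 25.9% of all genes. Phosphodiesterases were mostly lower in lateral septum-like neurons, 10 against 3 higher. Of these, Pde4a (lower) did not pass without replicate 2 or replicate 6 (edgeR adjusted p = 0.073 for each). Pde8a (higher) did not pass without replicate 4 or replicate 6 (edgeR adjusted p = 0.18 and 0.063). Both also missed the threshold with DESeq2 (adjusted p = 0.053 and 0.056). The adenylyl cyclases divided 4 higher to 3 lower, and the 2 cyclase subunits that passed, Gucy1a1 and Gucy1b1, were both lower. With nuclei thinned to 2000 UMIs, Adcy3, Pde4a, Pde8a, Prkaca, Prkacb, Prkar1b and Prkar2a no longer passed (edgeR adjusted p from 0.088 to 0.8).

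Pde7b showed the widest gap, with 72.0 to 87.1 CPM (median 77.6) in lateral septum-like and 652 to 794 CPM (median 706) in striatal-like neurons, a log2 difference of -3.22 ± 0.054 (SE, n = 6; edgeR adjusted p = 8.5e-22). Gucy1a1 stood at 17.8 to 21.1 CPM (median 19.4) against 95.4 to 133 CPM (median 106), a log2 difference of -2.57 ± 0.077 (edgeR adjusted p = 8.8e-18). Neither gene overlapped between the classes. Pde1b, a calcium-activated enzyme known from dopamine-responsive striatal neurons, stood at 21.5 to 24.2 CPM (median 22.1) against 82.2 to 131 CPM (median 100.5), a log2 difference of -2.27 ± 0.081 (edgeR adjusted p = 2e-16). Pde4b stood at 597 to 713 CPM (median 639) against 2456 to 3071 CPM (median 2700), a log2 difference of -2.13 ± 0.046 (edgeR adjusted p = 4e-20). Pde11a stood at 7.73 to 15.8 CPM (median 12) against 35.5 to 69.7 CPM (median 49.0), a log2 difference of -2.10 ± 0.13 (edgeR adjusted p = 3.7e-12). In each of the 3 genes all striatal-like libraries exceeded all lateral septum-like ones. Pde10a, the dual-substrate enzyme best known from striatal projection neurons, was lower too, at 535 ± 34.3 against 1212 ± 241 CPM in striatal-like neurons. Pde1a (350.5 ± 14.2 against 1227 ± 204 CPM), Pde8b (175 ± 14.9 against 608 ± 26.3 CPM), Prkar2b (96.7 ± 1.5 against 278 ± 22.6 CPM) and Adcy5, the main adenylyl cyclase of striatal neurons (104 ± 3.60 against 282 ± 48.8 CPM), were lower as well.

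In the other direction, Pde3a was higher in lateral septum-like neurons. It measured 75.4 to 83.2 CPM (median 80) against 4.25 to 16.7 CPM (median 10.3), a log2 difference of 2.87 ± 0.14 (edgeR adjusted p = 7e-14), and the classes did not overlap. The calcium-stimulated cyclases Adcy1 and Adcy8 followed it. Adcy1 was at 54.8 ± 2.89 against 12.7 ± 4.34 CPM (2.04 ± 0.12) and Adcy8 at 101 ± 7.12 against 25.4 ± 8.34 CPM (1.94 ± 0.12; edgeR adjusted p = 2e-12 and 2.7e-12). Adcy6 (16.1 ± 1.20 against 5.31 ± 2.89 CPM), Adcy2 (390.3 ± 31.6 against 231 ± 32.8 CPM) and Pde9a (83.5 ± 2.99 against 38.2 ± 6.10 CPM) were also higher in lateral septum-like neurons. Striatal markers in lateral septum-like nuclei summed to 6.98% of their own level, and lateral septum markers in striatal-like nuclei to 12.8%, against 11.0% for Pde7b and 13.0% for Pde3a, and the part of carried-over RNA in these levels was not tested. Of 41 other pathway genes tested 11 were higher and 12 lower. Pkib, a PKA inhibitor, was at 14.9 ± 1.90 against 46.4 ± 8.71 CPM, Pde6h at 10.3 ± 1.35 against 3.85 ± 1.67 CPM, and Nos3, the endothelial nitric oxide synthase, at 1.34 ± 0.331 against 3.1 ± 1.05 CPM.

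Lateral septum-like neurons held more Pde2a, Pde9a and Prkg1 than medial septum-like neurons and less Adcy8 and Pde3a. Of 36 tested 14 passed, 8 higher (12.7% of all genes) and 6 lower (9.96% of all) in lateral septum-like neurons, 22 did not pass, and 22.7% of all 14854 genes passed (edgeR, Benjamini-Hochberg adjustment). The median log2 difference was -0.009 over the 36 genes and 0.068 over all genes, and 10 of the 36 did not overlap, against 17.4% of all genes. Over all genes the split was 1893 higher to 1479 lower, but 1654 to 1640 with relative log expression factors. It was 1301 to 1682 with DESeq2 and 731 to 271 with nuclei thinned to 2000 UMIs. The balance of directions thus differed between settings. DESeq2 and thinning also changed the number of genes tested, to 21237 and 8157. The medial septum-like class held 13 to 30 nuclei per library.

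Pde2a led, with 167 to 189 CPM (median 172) in lateral septum-like and 32.7 to 66.9 CPM (median 45.1) in medial septum-like neurons (1.87 ± 0.14, SE, n = 6; edgeR adjusted p = 3.3e-12). Pde9a stood at 78.1 to 87.3 CPM (median 84.2) against 11.7 to 60.1 CPM (median 43.5), a log2 difference of 1.05 ± 0.17 (edgeR adjusted p = 1.4e-05). Both enzymes act on cGMP, and neither overlapped between the classes. Prkg1, which cGMP activates, stood at 1343 to 1585 CPM (median 1447) against 551 to 1008 CPM (median 714), a log2 difference of 1.04 ± 0.10 (edgeR adjusted p = 2.7e-09). Pde4a, a cAMP-specific enzyme, stood at 92.7 to 108 CPM (median 96.2) against 40.7 to 66.1 CPM (median 56.2), a log2 difference of 0.86 ± 0.13 (edgeR adjusted p = 3.2e-06). These 2 genes did not overlap either. On the medial septum-like side, Adcy8 measured 169.6 to 356 CPM (median 258) against 92.3 to 111 CPM (median 98.5) in lateral septum-like neurons (-1.24 ± 0.12, edgeR adjusted p = 2.8e-09). Pde3a measured 100.1 to 175 CPM (median 146) against 75.4 to 83.2 CPM (median 80), a log2 difference of -0.82 ± 0.11 (edgeR adjusted p = 6.2e-07). For both, all 6 medial septum-like libraries lay above all lateral septum-like ones. Adcy5, Gucy1b1, Prkar1a and Prkar2b were also higher in lateral septum-like neurons, and Pde3b, Pde4b, Pde7a and Adcy3 lower, each by 0.68 or less on the log2 scale. With nuclei thinned to 2000 UMIs 9 genes passed: Adcy3, Adcy5, Gucy1b1, Pde3b, Pde7a and Prkar1a no longer did (edgeR adjusted p from 0.31 to 0.94, with Adcy3 turned to 0.12), and Pde1a newly did (-0.58, edgeR adjusted p = 0.0046). Prkar1a also missed the threshold with relative log expression factors and with DESeq2 (adjusted p = 0.081 and 0.16). Leaving out single libraries cost 3 calls: Adcy3 without replicate 3, 5 or 6 (edgeR adjusted p from 0.054 to 0.17), Pde3b without replicate 1, 3 or 6 (0.06 to 0.18) and Prkar1a without replicate 1, 2, 4 or 5 (0.058 to 0.22). Lateral septum markers in medial septum-like nuclei summed to 15.0% of their own level, and medial septum markers in lateral septum-like nuclei to 15.4%. The 6 genes given by sample stood at 27.2 to 56.0%, and the part of carried-over RNA was not tested. Among 41 other pathway genes tested, 14 were higher and 5 lower. Named by size, these were Pde6h (10.3 ± 1.35 against 2.85 ± 3.1 CPM), the anchoring protein gene Akap5 (15.8 ± 1.10 against 4.46 ± 1.82 CPM) and the pacemaker channel gene Hcn4 (1.54 ± 0.432 against 5.39 ± 4.36 CPM, overlapping ranges). In medial septum-like neurons Pde6h rested on 8 UMIs in all. The 3 neuron comparisons share libraries, and the last 2 share the lateral septum-like sums.

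**Figure D2:**
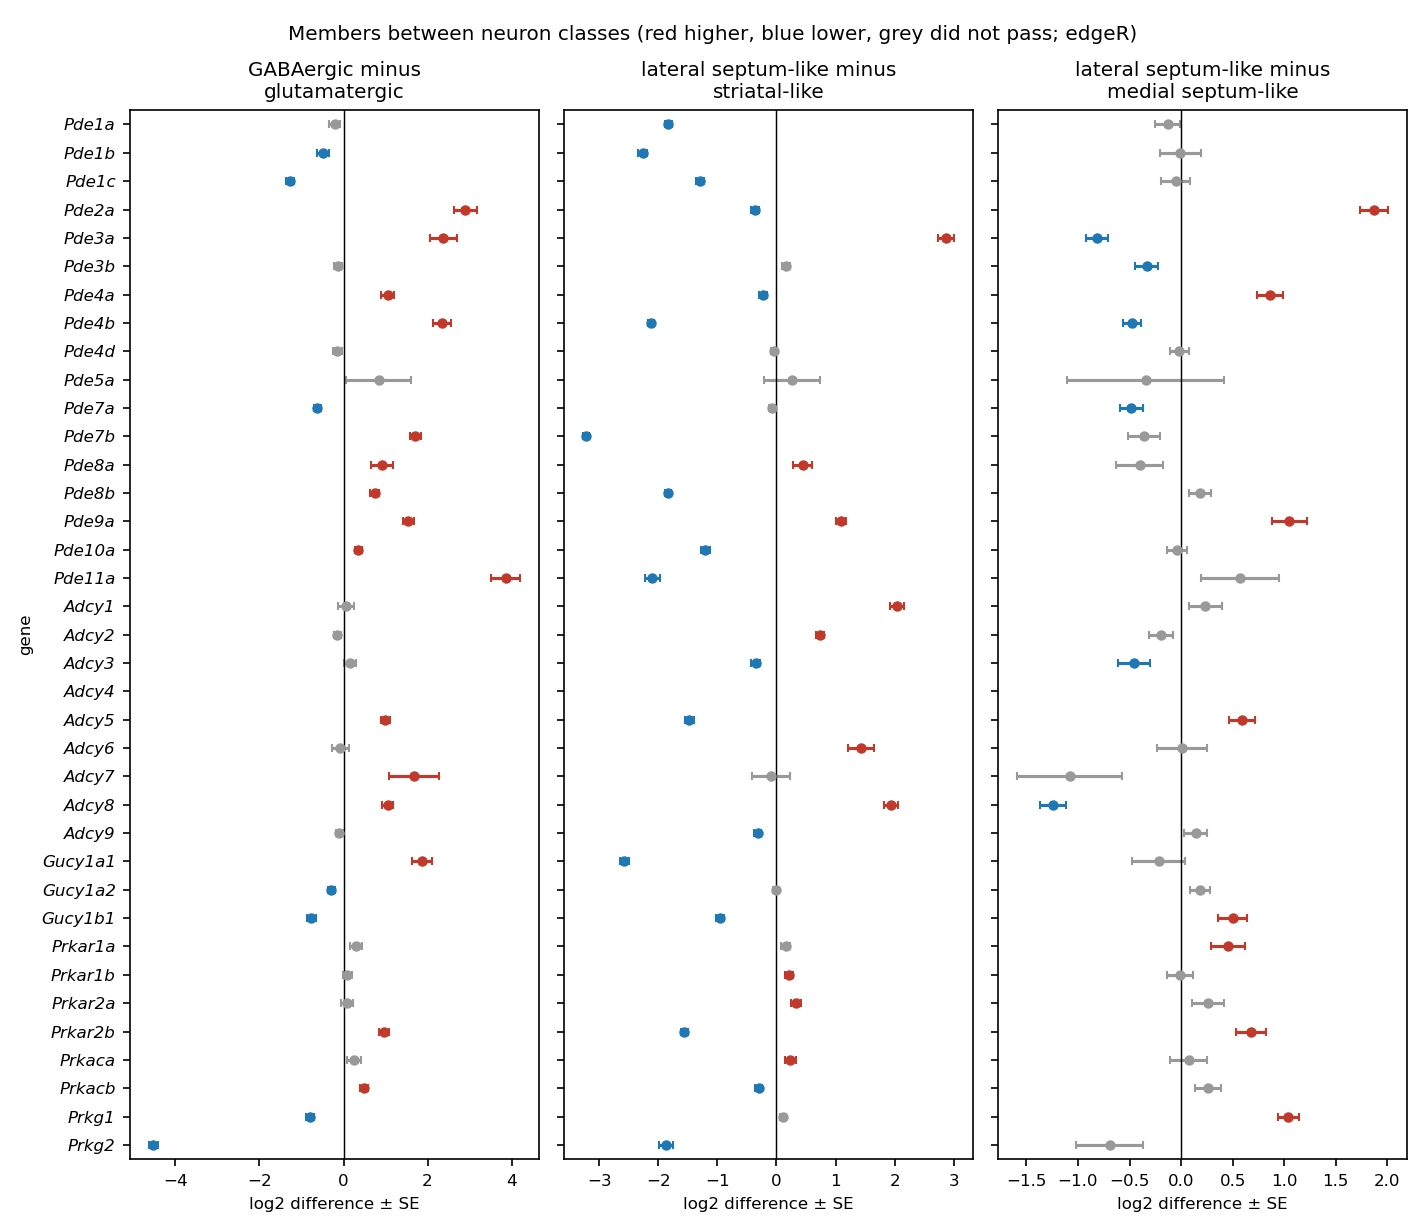
log2 difference (points, edgeR) and its SE (bars) of the 36 genes tested in 3 comparisons between neuron classes (Adcy4, listed without a point, was not tested), with genes that passed coloured by direction and grey for those that did not; the horizontal scales differ between panels. Prkg2 stands far to the left at -4.53 in the first panel, phosphodiesterases crowd the left side of the second, and Pde2a stands alone at 1.87 in the third.

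Cholinergic-like neurons, gated in 4 libraries with at least 10 nuclei, were not part of a tested comparison and are described by their levels. They held the highest means of Pde1a, Adcy1, Adcy8 and Prkar1b. Adcy8 was at 482 ± 61.5 CPM, with its lowest library at 424 CPM above the highest medial septum-like library at 355.5 CPM. Adcy1 was at 136 ± 41.5 CPM, against 54.8 ± 2.89 CPM in the next class, lateral septum-like neurons, again without overlap. Pde1a was at 1778 ± 365 CPM and overlapped striatal-like neurons, whose highest library reached 1557 CPM. Prkg1, in contrast, had its lowest mean of the neuron classes in cholinergic-like neurons, at 169.9 to 676 CPM (median 473), a range that overlapped that of medial septum-like neurons.

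Neurons as a whole held more of most of the genes than astrocyte-like nuclei. Of 36 genes tested 28 were higher (42.2% of all genes) and 4 lower (38.5% of all) in neurons, 88.9% in all, beside 80.7% of all 18214 genes (edgeR, Benjamini-Hochberg adjustment), so the share that passed was near that of genes at large. The median log2 difference was 1.12 over the 36 genes and 0.058 over all genes, and 29 of them did not overlap, against 65.1% of all genes. The genes of every role were mostly higher in neurons: 13 phosphodiesterases, 5 adenylyl cyclases, all 3 cyclase subunits, 5 PKA subunits and both PKG genes.

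Pde2a stood at 129 to 146 CPM (median 133) in neurons and 9.68 to 13.7 CPM (median 10.6) in astrocyte-like nuclei (3.66 ± 0.059, edgeR adjusted p = 3.9e-21). Prkar1b, a regulatory PKA subunit known mainly from neurons, stood at 87.7 to 96.3 CPM (median 92.2) against 5.25 to 9.88 CPM (median 7.98), a log2 difference of 3.59 ± 0.078 (edgeR adjusted p = 4.1e-19). Pde1a stood at 454 to 483 CPM (median 462) against 39.0 to 54.6 CPM (median 43.1), a log2 difference of 3.43 ± 0.048 (edgeR adjusted p = 6.3e-22). None of these 3 genes overlapped between the classes. Adcy5 measured 94.4 to 109 CPM (median 102) and 7.88 to 12.6 CPM (median 9.67), a log2 difference of 3.43 ± 0.065 (edgeR adjusted p = 4.6e-20). Prkg1 measured 1422 to 1545 CPM (median 1521) and 145 to 186 CPM (median 154), a log2 difference of 3.28 ± 0.064 (edgeR adjusted p = 6.8e-20). Pde10a measured 524 to 594 CPM (median 577) and 58.5 to 75.3 CPM (median 66.8), a log2 difference of 3.14 ± 0.041 (edgeR adjusted p = 2.4e-22). All neuron libraries again exceeded all astrocyte-like libraries in these 3 genes. The astrocyte-like levels of these 6 genes were 8.26 to 11.8% of the neuron levels. The 6 neuron markers, all detected in astrocyte-like nuclei, summed there to 1747 to 2316 CPM against 18720 to 20300 CPM in neurons, or 10.4%, and how much of the astrocyte-like level of each gene was neuronal RNA was not tested.

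Astrocyte-like nuclei exceeded neurons in 4 genes. Pde7b was at 130.1 ± 12.9 in neurons against 466.1 ± 24.8 CPM (-1.79 ± 0.045), Pde8b, a cAMP-specific enzyme of high affinity, at 226 ± 18.4 against 595 ± 35.1 CPM (-1.35 ± 0.057), Adcy2 at 387 ± 17.2 against 765 ± 31.9 CPM (-0.93 ± 0.043), and Adcy8 at 118 ± 5.12 against 166 ± 11.2 CPM (-0.44 ± 0.038; edgeR adjusted p between 4.4e-18 and 1.9e-09). Adcy2, a cyclase that G protein beta-gamma subunits stimulate, had its highest mean of all classes in astrocyte-like nuclei, but cholinergic-like neurons overlapped it at 712 ± 194 CPM. Of 51 other pathway genes tested 27 were higher and 16 lower in neurons. Nos1 was at 17.0 ± 2.21 against 1.0 ± 0.260 CPM and Pde6a at 9.62 ± 0.987 against 0.612 ± 0.240 CPM. The receptor guanylyl cyclase gene Gucy2c was at 0.701 ± 0.116 against 0.0520 ± 0.0812 CPM, the latter from 2 UMIs in all.

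Astrocyte-like nuclei held more Pde7b, Pde8b and Adcy2 than oligodendrocyte-like nuclei, and less Pde8a, Pde4b and Adcy5. Of 35 genes tested 14 were higher (37.9% of all genes) and 9 lower (35.2% of all) in astrocyte-like nuclei, which is 65.7%, below the 73.1% of all 13921 genes (edgeR, Benjamini-Hochberg adjustment). The median log2 difference was 0.09 over the 35 genes and -0.004 over all genes, and 20 did not overlap, against 52.9% of all genes. Of the adenylyl cyclases tested, 5 were higher in astrocyte-like nuclei and Adcy5 was lower. Of the 17 phosphodiesterases, 7 were lower, 4 higher and 6 did not pass, and Pde5a, 1 of the 7, missed the threshold with DESeq2, with the looser gate, with mitochondrial and high-UMI barcodes left out and without replicate 1 or 2 (adjusted p from 0.075 to 0.61).

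Pde8a, a cAMP-specific enzyme, measured 850.2 to 984 CPM (median 917) in oligodendrocyte-like and 16.3 to 22.0 CPM (median 19.8) in astrocyte-like nuclei, a log2 difference of -5.65 ± 0.054 for astrocyte-like minus oligodendrocyte-like (SE, n = 6; edgeR adjusted p = 2.5e-32). Pde4b measured 11180 to 12000 CPM (median 11690) and 644 to 715 CPM (median 693) in the same order (-4.19 ± 0.042, edgeR adjusted p = 4.5e-32). The classes lay far apart for both genes, and in both oligodendrocyte-like nuclei held the highest mean of the 15 classes. Adcy5 measured 101 to 113 CPM (median 104) and 7.88 to 12.6 CPM (median 9.67), a log2 difference of -3.52 ± 0.077 (edgeR adjusted p = 6.4e-25), again without overlap. Its oligodendrocyte-like level was close to that of lateral septum-like neurons, at 104 ± 3.60 CPM. The catalytic subunit gene Prkacb, at 201 ± 3.62 against 84.1 ± 3.23 CPM, and Pde1c, at 323 ± 22.0 against 44.5 ± 7.14 CPM, were also higher in oligodendrocyte-like nuclei.

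On the astrocyte-like side, Pde7b measured 441 to 503 CPM (median 456) against 22.2 to 31.2 CPM (median 24.7) in oligodendrocyte-like nuclei (4.07 ± 0.058, edgeR adjusted p = 3.3e-29). Adcy2 measured 734 to 824 CPM (median 756) against 43.7 to 64.9 CPM (median 48.2), a log2 difference of 3.81 ± 0.059 (edgeR adjusted p = 2.4e-28). Pde8b measured 557 to 638 CPM (median 599) against 34.2 to 44.9 CPM (median 40.9), a log2 difference of 3.78 ± 0.052 (edgeR adjusted p = 2.1e-29). No library of either class overlapped the other in these 3 genes. The pairs Pde7a with Pde7b and Pde8a with Pde8b therefore ran in opposite directions, since Pde7a was at 85.5 ± 3.36 against 148 ± 15.4 CPM (-0.89 ± 0.055). The astrocyte markers in oligodendrocyte-like nuclei summed to 5.35% of their own level, beside 5.57 to 6.8% for Pde7b, Adcy2 and Pde8b. The oligodendrocyte markers in astrocyte-like nuclei summed to 1.2%, beside 2.14% for Pde8a, 5.87% for Pde4b and 9.33% for Adcy5. The gates themselves limited these marker sums, and the part of carried-over RNA in these levels was not tested. Of 39 other pathway genes tested 14 were higher and 14 lower. Npr1, a natriuretic peptide receptor that makes cGMP, was at 0.300 ± 0.284 (11 UMIs in all) against 4.91 ± 0.679 CPM. The membrane guanylyl cyclase gene Gucy2e was at 3.47 ± 1.05 against 0.193 ± 0.103 CPM (5 UMIs in all). The inhibitory G protein gene Gnai1 was at 23.6 ± 2.74 against 258 ± 9.52 CPM.

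Oligodendrocyte-like nuclei held less of most of the genes than oligodendrocyte precursor-like nuclei. Of 34 genes tested 7 were higher (34% of all genes) and 24 lower (35.6% of all), 91.2% beside 69.6% of all 12459 genes (edgeR, Benjamini-Hochberg adjustment), and ranges of 30 of them did not overlap, against 50% of all genes. The median log2 difference was -1.33 over the 34 genes and 0.005 over all genes. All 3 cyclase subunits, both PKG genes, 6 of 7 adenylyl cyclases, 10 of 16 phosphodiesterases and 3 of 6 PKA subunits were lower. The genes that were higher were Pde1c, Pde4a, Pde4b, Pde7a, Pde8a, Adcy5 and Prkacb. This comparison and that with astrocyte-like nuclei share the oligodendrocyte-like sums.

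Prkg2 fell from 178 to 195 CPM (median 186) in precursor-like to 2.25 to 4.29 CPM (median 2.96) in oligodendrocyte-like nuclei (-5.83 ± 0.092, SE, n = 6; edgeR adjusted p = 2.7e-26). Pde7b fell from 653 to 706 CPM (median 683) to 22.2 to 31.2 CPM (median 24.7), a log2 difference of -4.74 ± 0.062 (edgeR adjusted p = 7.6e-28). Both were without overlap, and "fell" here orders the classes and not time. Prkg1 was at 1418 to 1497 CPM (median 1462) against 115 to 171 CPM (median 136), a log2 difference of -3.41 ± 0.06 (edgeR adjusted p = 2.4e-25). Adcy8 was at 129.6 to 155 CPM (median 141) against 10.8 to 15.8 CPM (median 15.5), a log2 difference of -3.32 ± 0.084 (edgeR adjusted p = 4.2e-22). Gucy1a2, an alpha subunit of soluble guanylyl cyclase, was at 258 to 302 CPM (median 288) against 34.4 to 48.5 CPM (median 38.9), a log2 difference of -2.85 ± 0.071 (edgeR adjusted p = 3.1e-22). Every precursor-like library exceeded every oligodendrocyte-like library in these 3 genes. Pde8a ran the other way, at 42.7 to 50.9 CPM (median 43.0) in precursor-like against 850.2 to 984 CPM (median 917) in oligodendrocyte-like nuclei (4.35 ± 0.052, edgeR adjusted p = 1.8e-28), also without overlap. Precursor markers in oligodendrocyte-like nuclei summed to 1.73% of their own level, beside 1.72% for Prkg2, 3.8% for Pde7b, 9.56% for Prkg1, 10.1% for Adcy8 and 14.1% for Gucy1a2. Oligodendrocyte markers in precursor-like nuclei summed to 0.939%, beside 4.85% for Pde8a, and the part of carried-over RNA was not tested.

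Committed precursor-like nuclei, gated by Gpr17, Enpp6 and Bmp4 in 19 to 33 nuclei per library, lay between the other 2 classes for some genes and outside them for others. Pde4b was intermediate, at 3593 ± 502 CPM between 2110 ± 75.4 and 11640 ± 318 CPM. Pde7b, at 35.1 ± 13.8 CPM, was near its oligodendrocyte-like level of 26.0 ± 3.31 CPM, whereas Pde8a, at 57.9 ± 33.4 CPM, was near its precursor-like level of 44.5 ± 3.24 CPM. Pde9a, at 132 to 279.6 CPM (median 181), lay above 10.2 ± 2.31 CPM in precursor-like and 8.36 ± 4.09 CPM in oligodendrocyte-like nuclei and held its highest mean of the 15 classes there. Pde4d, at 1964 to 3071 CPM (median 2857), also exceeded both. These levels were not tested. Oligodendrocyte markers in this class summed to 35.8% and precursor markers to 21.4% of their level in their own classes, against 0.939% and 1.73% across the other 2 classes. The gate left out of those 2 classes any nucleus with at least 0.5 of the other's cutoff, but did not do so for committed precursor-like nuclei. The contrast thus follows in part from the gate, and whether single nuclei expressed both lists was not tested. Of 38 other pathway genes tested between oligodendrocyte-like and precursor-like nuclei 18 were higher and 14 lower. Gucy2f, a membrane guanylyl cyclase best known from the retina, was at 1.06 ± 0.302 against 96.8 ± 5.89 CPM, the anchoring protein gene Akap12 at 3.89 ± 0.985 against 47.1 ± 4.20 CPM and Hcn3 at 0.737 ± 0.5 against 5.30 ± 0.878 CPM.

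**Figure D3:**
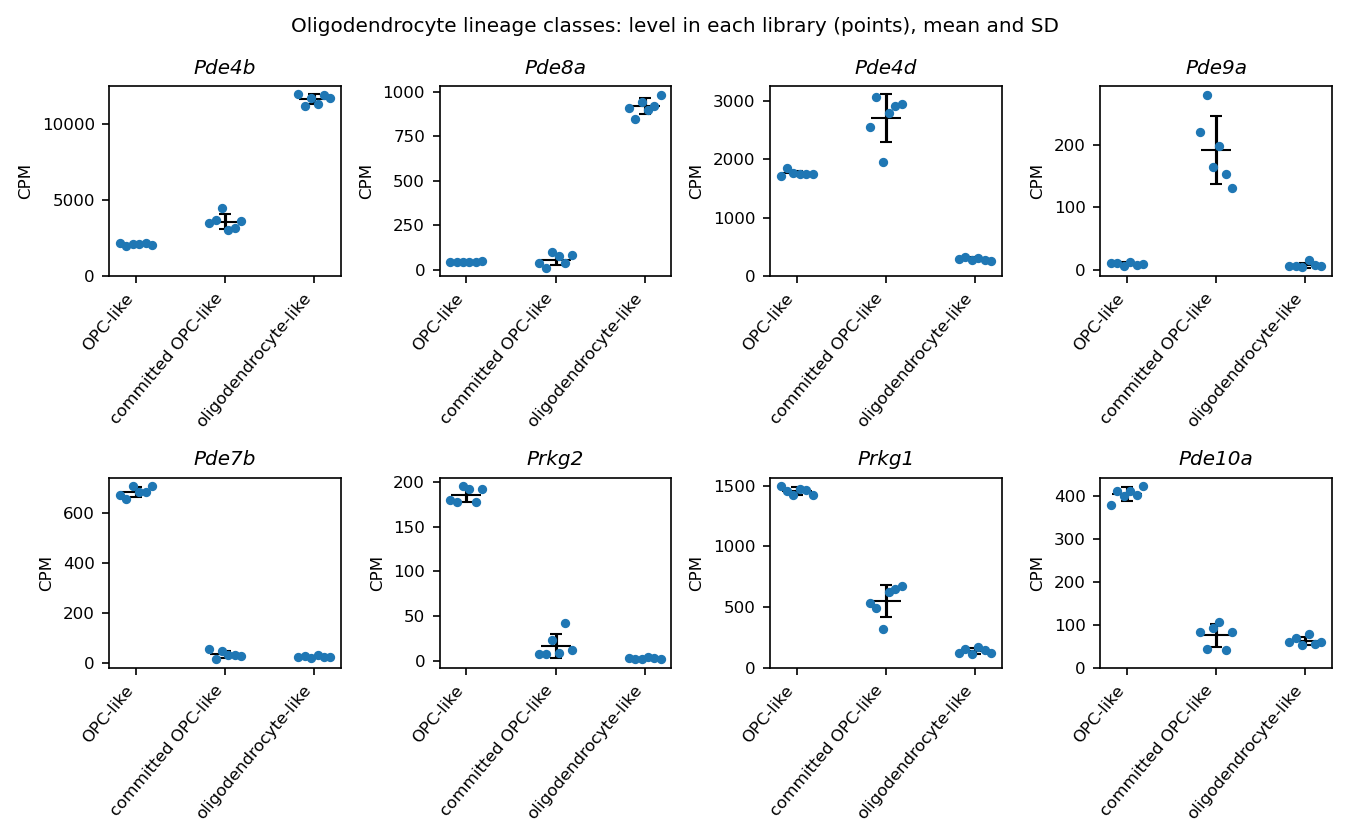
CPM in each of 6 libraries (points) with the mean and SD (bars) for 8 genes in precursor-like (OPC-like), committed precursor-like and oligodendrocyte-like nuclei; each panel has its own linear axis. Pde4b and Pde8a were highest in oligodendrocyte-like nuclei, Pde7b, Prkg2, Prkg1 and Pde10a in precursor-like nuclei, and Pde4d and Pde9a in committed precursor-like nuclei.

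Mural-like nuclei exceeded endothelial-like nuclei in the genes that make cGMP in response to nitric oxide and in Prkg1, and log2 differences reached 6.52. Of 20 genes tested 13 were higher (20.4% of all genes) and 2 lower (25.1% of all) in mural-like than in endothelial-like nuclei, 75.0% beside 45.5% of all 3173 genes (edgeR, Benjamini-Hochberg adjustment), and 13 of the 20 did not overlap, against 33.2% of all genes. The other 17 genes had too few counts to be tested, the class sums being 87360 to 169445 UMIs per library for mural-like and 140178 to 255207 for endothelial-like nuclei. The median log2 difference was 1.12 over the 20 genes and -0.023 over all genes. The 20 include genes that passed the filter on low counts through the mural-like class alone, so their count does not speak for the 37.

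Soluble guanylyl cyclase, the nitric oxide receptor, was high in mural-like nuclei in all 3 subunits. Gucy1a1 measured 206 to 418 CPM (median 343) in mural-like against 0 to 14.3 CPM (median 8.17) in endothelial-like nuclei (5.32 ± 0.30, SE, n = 6; edgeR adjusted p = 4.5e-25). Gucy1b1, the beta subunit gene, measured 572 to 844 CPM (median 682) against 0 to 29.8 CPM (median 12.6), a log2 difference of 5.67 ± 0.24 (edgeR adjusted p = 4e-32). In endothelial-like nuclei Gucy1a1 rested on 10 UMIs in all and Gucy1b1 on 17, so both lay near the floor there. Gucy1a2 measured 1655 to 1906 CPM (median 1730) against 44.9 to 97.2 CPM (median 62.5), a log2 difference of 4.74 ± 0.15 (edgeR adjusted p = 5.8e-39). The ranges did not overlap for any subunit, and for each the mural-like class was the highest of the 15 without overlap with the next. Prkg1, the kinase through which cGMP relaxes smooth muscle, was at 5552 to 7153 CPM (median 6957) against 2132 to 2597 CPM (median 2411), a log2 difference of 1.54 ± 0.075 (edgeR adjusted p = 1.2e-28), also without overlap. Nos3, which makes nitric oxide in endothelium and is not among the 37, was the reverse, with 250 UMIs in endothelial-like and 0 in mural-like nuclei, at least 50.7-fold higher in endothelial-like nuclei against a floor of 3 counts over the mural-like group.

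The phosphodiesterases higher in mural-like nuclei included enzymes for either nucleotide. Pde8b measured 3938 to 5396 CPM (median 4946) against 25.5 to 99.9 CPM (median 47.5) in endothelial-like nuclei (6.52 ± 0.15, edgeR adjusted p = 3.2e-47), and the next class of the 15, striatal-like neurons, reached 608 ± 26.3 CPM. Pde3a measured 502 to 976 CPM (median 597) against 7.84 to 21.4 CPM (median 9.97), a log2 difference of 5.80 ± 0.24 (edgeR adjusted p = 5e-33). Its endothelial-like level rested on 14 UMIs in all. Pde5a, the cGMP-specific enzyme of smooth muscle, measured 343 to 492 CPM (median 428) against 38.3 to 94.3 CPM (median 62.0), a log2 difference of 2.73 ± 0.19 (edgeR adjusted p = 6.6e-21). No library of the 2 classes overlapped in these 3 genes. Pde5a was at 2.95 CPM or below on average in each neuron class and in astrocyte-like, oligodendrocyte-like and microglia-like nuclei. Pde4d (3930 ± 433 against 1033 ± 176 CPM), Pde1a (332 ± 73.3 against 61.5 ± 32.9 CPM) and Adcy9 (269 ± 26.8 against 158 ± 46.5 CPM) were higher in mural-like nuclei as well.

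Endothelial-like nuclei exceeded mural-like nuclei in Pde2a, at 179.5 ± 16.8 against 56.1 ± 23.1 CPM (-1.61 ± 0.25 for mural-like minus endothelial-like, edgeR adjusted p = 6.1e-08), and in Pde8a, at 288 ± 15.8 against 177 ± 60.6 CPM (-0.63 ± 0.18, edgeR adjusted p = 0.002). Adcy4, a cyclase that was not tested here, was at 28.5 to 70.5 CPM (median 50.1) in endothelial-like and 0 to 15.3 CPM (median 5.72) in mural-like nuclei, without overlap, and at or under 0.522 CPM on average in each of the other 13 classes. Pde7b, in contrast, was at 668 ± 97.8 and 611 ± 89.3 CPM and did not pass. Mural markers in endothelial-like nuclei summed to 0.542% of their own level, with 6 of 8 markers detected. The shares of Pde8b, Pde3a, Gucy1b1, Gucy1a1 and Gucy1a2 were 1.2 to 3.91%. The neuron markers summed to 15.1% of their neuron level in mural-like and 15.6% in endothelial-like nuclei, and the part of neuronal RNA in these levels was not tested. Of 20 other pathway genes tested 7 were higher and 3 lower in mural-like nuclei. Besides Nos3, the largest differences were in the PKA inhibitor gene Pkia (185 ± 41.7 against 75.3 ± 25.8 CPM) and the anchoring protein gene Akap7 (281 ± 83.9 against 108 ± 11.0 CPM).

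**Figure D4:**
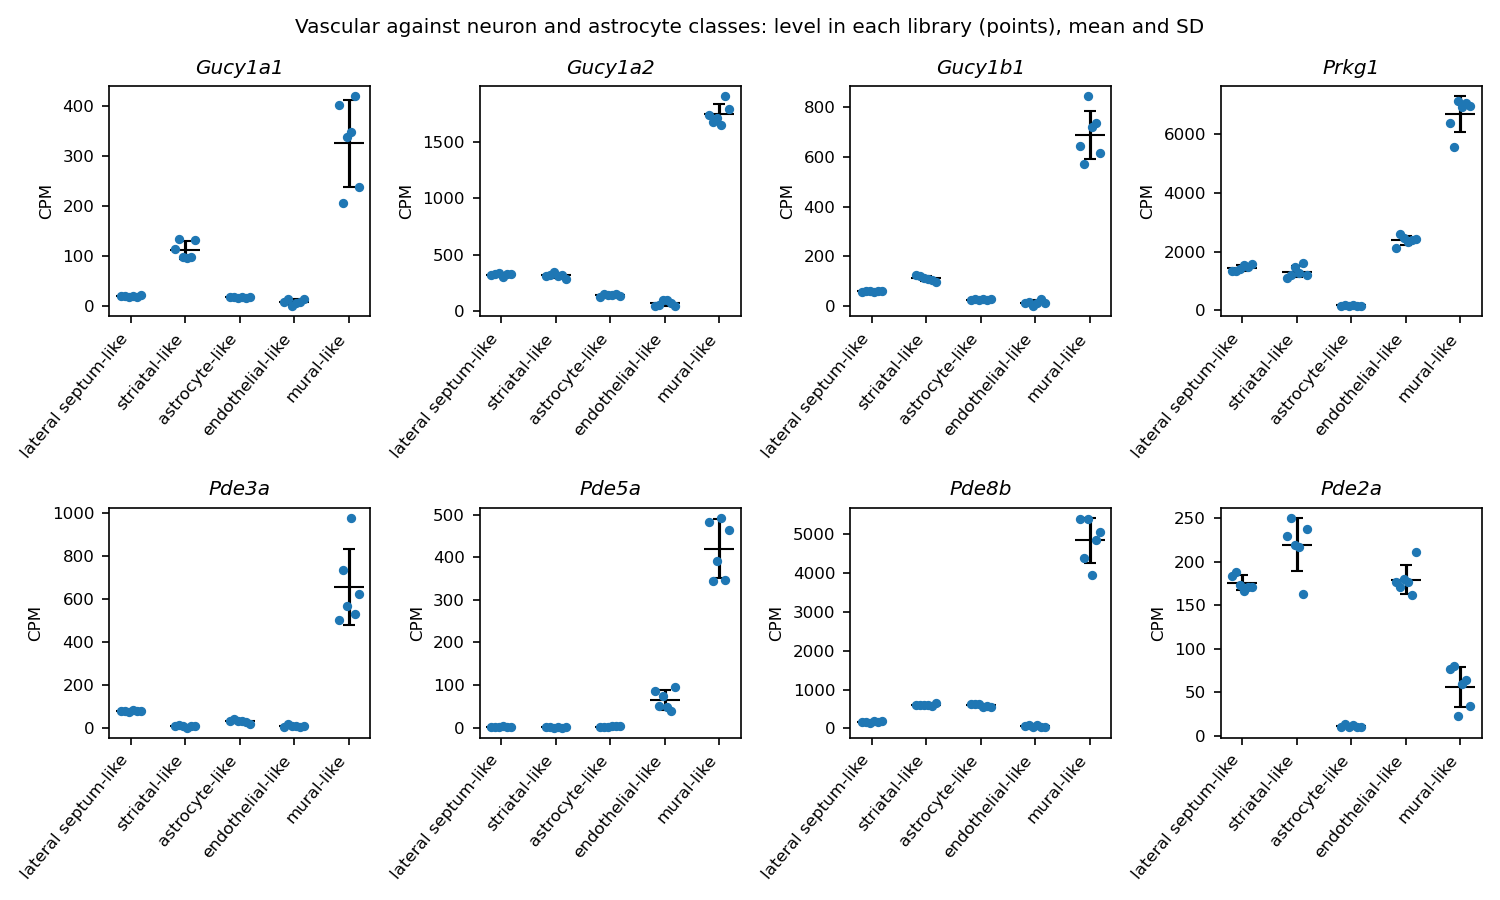
CPM in each of 6 libraries (points) with the mean and SD (bars) for 8 genes in 5 classes; each panel has its own linear axis. The 3 soluble guanylyl cyclase subunits, Prkg1, Pde3a, Pde5a and Pde8b were highest in mural-like nuclei, and Pde2a was higher in endothelial-like than in mural-like nuclei.

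Gucy1a1 and Gucy1b1, the alpha and beta subunits that form 1 enzyme, lie on 1 strand of chromosome 3, with start sites 70.9 kb apart. The bases before their starts are printed because both genes were highest in mural-like nuclei, with those of Pde8a, highest in oligodendrocyte-like nuclei, and Prkar1a, a PKA regulatory subunit, whose window was the 1 with the full cAMP response element. The windows come from RefSeq on build GRCm38.p6 and end at the base before the start site, with bases of an annotated exon at that end left out: Gucy1a1 at chr3:82145790-82145900 and Gucy1b1 at chr3:82074712-82074961 on the minus strand, Pde8a at chr7:81213015-81213264 and Prkar1a at chr11:109650699-109650920 on the plus strand. Capitals mark the cAMP response element TGACGTCA and its core TGACG, which reads CGTCA when it lies on the other strand, the sequence that CREB, a transcription factor that PKA phosphorylates, binds.
Gucy1a1: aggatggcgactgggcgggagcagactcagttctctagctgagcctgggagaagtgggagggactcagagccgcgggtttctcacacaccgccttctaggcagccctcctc
Gucy1b1: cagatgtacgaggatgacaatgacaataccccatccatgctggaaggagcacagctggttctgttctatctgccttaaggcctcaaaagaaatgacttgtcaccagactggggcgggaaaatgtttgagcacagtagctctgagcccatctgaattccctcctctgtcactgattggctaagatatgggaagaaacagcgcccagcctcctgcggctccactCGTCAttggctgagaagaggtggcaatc
Pde8a: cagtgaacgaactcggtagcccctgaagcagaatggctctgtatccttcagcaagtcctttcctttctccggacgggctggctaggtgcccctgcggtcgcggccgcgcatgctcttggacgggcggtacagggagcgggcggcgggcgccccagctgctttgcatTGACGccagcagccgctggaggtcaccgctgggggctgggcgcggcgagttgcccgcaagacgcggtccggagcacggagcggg
Prkar1a: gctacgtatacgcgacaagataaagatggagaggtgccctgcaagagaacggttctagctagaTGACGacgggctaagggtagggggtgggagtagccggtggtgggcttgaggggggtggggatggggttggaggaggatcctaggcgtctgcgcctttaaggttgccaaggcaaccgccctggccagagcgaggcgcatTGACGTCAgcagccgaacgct

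The full element was found in 1 of the 69 windows of the 30 genes with a RefSeq entry, that of Prkar1a, or 1.45% against 1.55% of 32851 windows of all genes, and it lies near the end of the printed window. The core, counted on both strands and including the full element, was found in 14 windows of 12 genes, 20.3% against 17.8% of all windows. The CArG box, the serum response factor motif of smooth muscle genes, was found in none of the 69 windows and in 1.47% of all. The GC box GGGCGG, which reads CCGCCC when it lies on the other strand, was found in 43.5% of the windows and 32.7% of all. A match describes letters only, and none of the windows was tested for binding.

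Microglia-like nuclei held 2 of the genes far above other classes. Pde3b, the cAMP enzyme best known from fat and liver, was at 1776 to 2167 CPM (median 1893), and the next class, neuroblast-like nuclei, at 268 ± 159 CPM. Adcy7, a cyclase best known from immune cells, was at 81.2 to 122 CPM (median 111), against 16.2 ± 10.3 CPM in the next class, cholinergic-like neurons. Neither overlapped its next class, and neither was tested. Neuroblast-like nuclei, gated by Top2a, Mki67, Sox11, Igfbpl1, Dlx2 and Cd24a, held Pde7a at 261 ± 92.2 CPM and Pde5a at 80.8 ± 35.4 CPM. Ependymal-like nuclei held the second highest mean of Adcy6, 26.7 ± 2.04 CPM after 67.1 ± 23.8 CPM in mural-like nuclei.

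The PKA subunit genes differed in how far their class means ranged. The catalytic subunit genes Prkaca and Prkacb ran from 19.4 to 33.3 CPM and from 72.0 to 200.9 CPM, and the regulatory subunit genes Prkar1a and Prkar2a from 30.5 to 78.7 CPM and from 26.6 to 79.9 CPM. The top class overlapped the next for each of these but Prkacb, whose oligodendrocyte-like libraries lay above those of the next class, striatal-like neurons. Prkacb passed in 5 of 7 comparisons, Prkar1a in 3 of 7 and Prkar2a in 3 of the 6 that tested it, and between astrocyte-like and oligodendrocyte-like nuclei they differed by -1.36 ± 0.043, 0.38 ± 0.071 and 0.76 ± 0.068 on the log2 scale (edgeR adjusted p = 3.8e-21, 2.3e-05 and 6.2e-11). Prkaca passed in 2 of the 6 comparisons that tested it, between lateral septum-like and striatal-like neurons (0.24 ± 0.093, edgeR adjusted p = 0.049) and between neurons and astrocyte-like nuclei (0.52 ± 0.064, edgeR adjusted p = 4.1e-07). The first of these did not pass when any of replicates 1 to 5 was left out (edgeR adjusted p from 0.055 to 0.16) and was -0.005 with the stricter gate. Prkar1b ranged from 8.04 CPM in astrocyte-like nuclei to 113 CPM in cholinergic-like neurons. Prkar2b ranged from 13.4 ± 6.09 CPM in microglia-like nuclei to 258 to 318 CPM (median 271) in striatal-like neurons. The lowest striatal-like library lay above the highest of the next class, other GABAergic-like neurons.

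Among protein-coding genes and long noncoding transcripts of the reference annotation, 11 of the 37 genes overlap one on the opposite strand (Pde3a, Pde5a, Pde7a, Pde8b, Pde9a, Pde10a, Adcy2, Adcy3, Adcy6, Adcy8 and Prkg1), and Pde2a and Prkar1b overlap 1 on the same strand. Overlaps with microRNA and other small RNA genes, pseudogenes and provisional loci, which further members have (Pde4d, Pde7b, Pde8a, Adcy5, Gucy1a1 and Prkg2 among them), are not in these counts. The labels do not state whether counting used strand, so reads of overlapping neighbours cannot be told apart from those of the members.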

How the data were processed

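The authors deposited, per library, a matrix of UMI counts per gene and barcode made from Chromium 3' libraries with Cell Ranger 3.1.0 and STAR, per the submitters' processing notes (the file headers name cellranger 5.0.0). The genome build, the annotation, intron counting and strand use are not stated in the labels. The members and gene lists were chosen with earlier results of these data known, and gate cutoffs were set after marker distributions and class sizes were seen.

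Barcodes with at least 500 genes were gated by marker UMIs per 10000. Those meeting 1 gate and at least 0.5 of the cutoff of an unrelated class (6988, 12.8%) were left out, and no doublet caller was run. Counts were summed per library and class with at least 10 nuclei. Classes were compared with edgeR 4.0.16 (R 4.3.3; TMM factors, filterByExpr, quasi-likelihood test, library as a block, since the classes of a library are the same sample), with Benjamini-Hochberg adjustment over all genes tested and a threshold of 0.05. The procedure was tested on simulated data. For each comparison the range and median over libraries were given for the 6 genes of largest absolute log2 difference among those that passed with 1 direction in every library, as for genes highest in a class, and up to 3 other pathway genes were named by size, 1 of which is not reported here. Correlations of log2 levels between libraries were 0.998 to 0.9989, and their counts differed by more than sampling noise (chi-square per gene 7.04 to 19.3). Both were taken over neurons, astrocyte-like and oligodendrocyte-like nuclei and the barcodes without a class, and not over the other classes. Alternatives were relative log expression factors, DESeq2 1.42.0, no count filter, no block, stricter and looser gates, thinned nuclei, barcodes of high mitochondrial share or UMIs left out, and each library left out.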

Additional observations from a re-analysis of the deposited data

Results flagged for a closer look

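Of 80 groups of 6 libraries tested for a library far from the rest, 3 held one, and chance gives about 1 in 20. Pde4b in glutamatergic-like neurons was at 604 CPM in replicate 4, against 66.5 to 171 CPM in the other 5 libraries. Pde1b in lateral septum-like neurons was at 24.2 CPM in replicate 4, against 21.5 to 22.3 CPM in the others. Pde8a in oligodendrocyte precursor-like nuclei was at 50.9 CPM in replicate 6, against 42.7 to 44.6 CPM in the others.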

How the results depend on the processing

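The 42 differences given by sample kept their direction and call in all 582 alternative values that could be computed. Over all 233 gene results, 3054 of 3201 alternative values kept both, 99 no longer passed, 44 newly passed and 4 reversed. The reversed values were 0.12 for Adcy3 between lateral septum-like and medial septum-like neurons and 0.37 for Pde1a between GABAergic-like and glutamatergic-like neurons, both with thinned nuclei, and -0.009 for Pde4b between neurons and astrocyte-like nuclei and -0.005 for Prkaca between lateral septum-like and striatal-like neurons, both with the stricter gate; the cause was not tested. With thinned nuclei 9 genes passed between lateral septum-like and medial septum-like neurons in place of 14: 6 of the 14 no longer passed and Pde1a newly did. That comparison could not be fitted with the stricter gate, which left fewer than 4 libraries with 10 nuclei. Leaving out 1 library gave 20 to 23 genes called for GABAergic-like against glutamatergic-like neurons, 25 to 28 for lateral septum-like against striatal-like, 12 to 15 for lateral septum-like against medial septum-like, 32 to 33 for neurons against astrocyte-like, 21 to 24 for astrocyte-like against oligodendrocyte-like, 30 to 32 for oligodendrocyte-like against precursor-like and 14 to 15 for mural-like against endothelial-like nuclei. Without the replicate block the counts were 23, 29, 14, 32, 22, 31 and 15 in that order. Low depth kept 17 of the 37 genes from being tested between mural-like and endothelial-like nuclei.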
